A study of Saccharomyces cerevisiae with 3 samples.

Results

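The 9 genes described here encode the kinases and binding partners of the spindle checkpoint and of the yeast Aurora kinase: *MPS1*, *IPL1*, *SLI15*, *BIR1*, *MAD1*, *MAD2*, *MAD3*, *BUB1* and *BUB3*. They were found by their open reading frame identifiers among the 6218 genes of the arrays, and all 9 were present. The rule itself uses no measured value, but the set was chosen with earlier results of these data known. In Δ*sum1* cells that had spent 6 hours in sporulation medium, 7 of the 8 genes that could be measured were at least 1.5-fold above the reference of growing cells, led by *MPS1* at 16.3-fold. After 40 minutes in rich medium 7 of the 8 were at least 1.5-fold lower than before, by 2.01-fold for *BIR1* up to 5.46-fold for *MAD3*. *MAD1* differed by less than 1.3-fold, but passed 1.5-fold under an alternative floor for dim signals. *BUB1* was too dim to be measured.

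The sampled cells were SK1 diploids in which *SUM1* is deleted (strain JPY214), and SK1 is a laboratory strain known for efficient sporulation. Sum1 is a repressor that keeps middle sporulation genes silent in growing cells. The culture was grown in YPD and then in YPA, a rich acetate medium, and was placed in SPM, a starvation medium with acetate, to sporulate. Cells were taken after 6 hours in SPM, and part of the same culture was moved to YPD, a rich glucose medium, and sampled after 20 and 40 minutes. Every sample went onto 1 array of its own, together with the same reference RNA from the wild-type SK1 diploid NKY1551 growing in YPA. All 3 samples carry the deletion and come from 1 strain, so nothing here separates its effect. No Δ*sum1* culture left in SPM for the extra 20 or 40 minutes is among these arrays, and the medium, the elapsed time and the slide cannot be told apart. Each sample is a mixed population of cells, in which fewer cells expressing a gene and less RNA per cell cannot be told apart.

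The spindle checkpoint delays anaphase until every chromosome is attached to the spindle. Mps1 kinase starts the signal at unattached kinetochores, the Bub proteins are recruited there, and Mad1 with Mad2 builds an inhibitor of the anaphase-promoting complex that also contains Mad3 and Bub3. Ipl1, the only Aurora kinase of budding yeast, acts with Sli15 and Bir1 to release wrongly attached microtubules, so that the attachment can be tried again. In meiosis Mps1 and Ipl1 are needed for homologous chromosomes to attach to opposite poles in the first division, when sister kinetochores act as a unit.

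A value is the log2 ratio of the Δ*sum1* sample (Cy5) to the reference (Cy3) after background subtraction and subtraction of the median of the array, and a change is the difference between the ratio in YPD and the ratio before the transfer. Each gene had 2 adjacent spots, and the SD given is that between the 2 spots. It leaves out the variation between cultures and between slides, and no test was possible without replicate arrays. Over all genes the pooled SD of a change was 0.23 at 20 minutes and 0.24 at 40 minutes. Spots grew dimmer with time in the sample channel, where the median gene spot was 2.65-fold dimmer at 40 minutes than at 6 hours, against 1.40-fold in the reference channel. *SUM1* itself was at log2 ratios of -1.76, -1.37 and -1.64 at 6 hours, 20 and 40 minutes.

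*MPS1* gave the highest ratio of the 9 genes on every array. Before the transfer to YPD its log2 ratio was 4.03 ± 0.06 (SD, n = 2 spots), then 2.77 ± 0.07 at 20 minutes and 1.77 ± 0.06 at 40 minutes. The Δ*sum1* cells thus held 16.3-fold, 6.81-fold and 3.42-fold the level of the growing reference, and the spots of different arrays did not overlap. At 6 hours only 130 genes on the array had a higher ratio than *MPS1*. Its change was -1.26 ± 0.0042 at 20 minutes and -2.25 ± 0.13 at 40 minutes, a level 2.39-fold and then 4.76-fold lower. It was also the gene with the largest further step between 20 and 40 minutes, -0.99 ± 0.13, so that 55.9% of its 40 minute change was present at 20 minutes. In the sample channel its mean Cy5 signal was 33968, 8147 and 3290, on arrays whose median Cy5 spot was 4280, 2748 and 1616. The Cy3 signal of *MPS1* was 2193, 1537 and 1627. With each array centered on its median, the Cy5 signal alone gave -1.42 at 20 minutes and -1.97 at 40 minutes, and the step between them was -0.55, short of the 1.5-fold limit.

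*IPL1*, the Aurora kinase gene, was the second highest of the 9 at 6 hours, at a log2 ratio of 2.62 ± 0.10 or 6.14-fold over the reference. Its ratio was 0.97 ± 0.16 at 20 minutes and 0.55 ± 0.59 at 40 minutes. The last value is the least precise among the 8 measured genes, because its 2 spots read 0.14 and 0.97. Both spots nevertheless lay below both spots of 6 hours, and the change of *IPL1* was -1.65 ± 0.26 at 20 minutes and -2.07 ± 0.49 at 40 minutes. With each spot taken alone the change at 40 minutes was -2.41 and -1.72, both past the 1.5-fold limit. On the 3 arrays in order its Cy5 signal was 6595, 1122 and 815. The reference spots of *IPL1* were dim, with mean Cy3 signals of 1133, 739 and 973. These lay under the mean Cy3 signal of the buffer spots, which was 2232, 1297 and 1537. With weaker signals raised to the buffer mean of their channel, the log2 ratio of *IPL1* at 6 hours was 1.86 in place of 2.62. At 20 and 40 minutes its spots lay under that mean in both channels, so no change is measured under that setting. Whether *IPL1* was lower at 40 than at 20 minutes cannot be read from these spots, since that step was -0.41 ± 0.74.

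The partners of Ipl1 did not share its ratio. *SLI15*, whose product is the INCENP-like subunit that activates and positions Ipl1, had log2 ratios of 1.42 ± 0.04, 0.40 ± 0.03 and 0.22 ± 0.01 on the arrays of 6 hours, 20 and 40 minutes. It was 2.67-fold above the reference in SPM, and 84.7% of its change of -1.20 ± 0.03 at 40 minutes was already present at 20 minutes (-1.02 ± 0.06). For *IPL1* that share was 80% by the means, but its step from 20 to 40 minutes was -0.41 ± 0.74, so the share is not firm. Like shares were found for *MAD2* (83.9%) and *MAD3* (76%). *BIR1*, the survivin-like subunit that helps bring the complex to the centromere, was the exception at 6 hours, with a log2 ratio of -0.01 ± 0.01. It was at the level of growing cells in SPM, at -0.40 ± 0.09 after 20 minutes and at -1.02 ± 0.07 after 40 minutes, when it stood 2.02-fold below the reference. Its change was -0.39 ± 0.10 at 20 minutes, short of the 1.5-fold limit, and -1.01 ± 0.06 at 40 minutes. Both calls turn with the floor: at a floor set to the mean of the buffer spots *BIR1* was at -0.72, past the limit, and at -0.54, short of it. *BIR1* was the only one of the 8 genes to end at least 1.5-fold below the reference, and the smallest part of its 40 minute change, 39.1%, was present at 20 minutes.

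**Figure D1:**
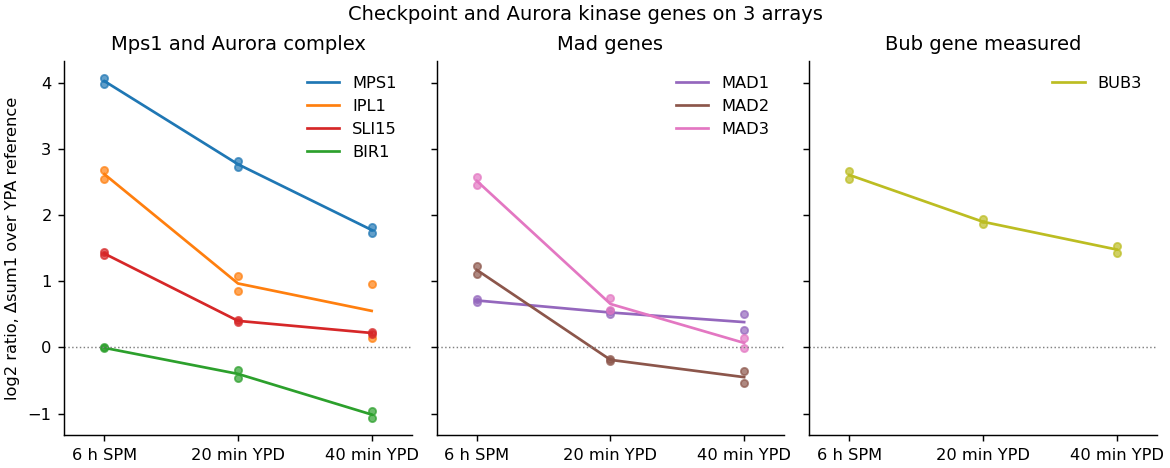
Log2 ratio of the Δ*sum1* sample to the YPA reference (vertical axis) for the 8 measured genes on the arrays of 6 hours in SPM and 20 and 40 minutes in YPD (horizontal axis). Dots are the 2 spots of a gene and lines join their means; every line is lower at 40 minutes than at 6 hours, *MPS1* from 4.03 to 1.77 and *MAD1* only from 0.71 to 0.38.

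The 3 Mad genes differed widely from each other. *MAD3*, whose product binds Cdc20 as a pseudosubstrate in the checkpoint complex, had log2 ratios of 2.52 ± 0.08, 0.66 ± 0.13 and 0.07 ± 0.10 at 6 hours, 20 and 40 minutes. From 5.72-fold above the reference it came to 1.05-fold, a level within the spread of its spots of that of growing cells. This was the largest change among the 8 genes at both times, -1.86 ± 0.21 at 20 minutes and -2.45 ± 0.02 at 40 minutes. At 20 minutes it could not be separated from that of *IPL1* by the SD of the spots. The centered Cy5 signal alone gave -1.83 for *MAD3* and -1.91 for *IPL1* at that time. At 40 minutes 310 of 6066 genes had a more negative change than *MAD3*.

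*MAD2*, which encodes the protein that changes fold to clasp Cdc20, had log2 ratios of 1.17 ± 0.09, -0.19 ± 0.02 and -0.45 ± 0.13 on the 3 arrays in the same order. Its ratio passed from 2.25-fold above the reference to 1.37-fold below it. Its changes were -1.36 ± 0.07 and -1.62 ± 0.22, and 83.9% of the latter was present at 20 minutes. *MAD1*, whose product anchors Mad2 at the kinetochore, stood at 0.71 ± 0.02 at 6 hours, 0.53 ± 0.03 at 20 minutes and 0.38 ± 0.17 at 40 minutes. Its changes of -0.18 ± 0.0053 and -0.33 ± 0.15 stayed within 1.3-fold, as did those of 23% and 19.7% of all genes, and lay close to the medians of all genes, -0.28 and -0.35. Against those medians *MAD1* was at 0.10 and 0.03, and its Cy5 signal alone gave 0.04 and -0.10, so no direction is given for it. At 40 minutes the change of *MAD1* differed from that of its binding partner *MAD2* by 1.29 on the log2 scale.

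*BUB3* encodes a propeller protein that reads phosphorylated Spc105 at the kinetochore and brings Bub1 there. The *BUB3* ratio stood at 2.61 ± 0.09 at 6 hours and came to 1.90 ± 0.06 at 20 minutes and to 1.48 ± 0.07 at 40 minutes. It started level with *IPL1* and *MAD3* but ended higher, at 2.79-fold above the reference, and with *MPS1* it was 1 of 2 genes still at least 1.5-fold above the reference after 40 minutes. Its change was -0.71 ± 0.15 at 20 minutes and -1.13 ± 0.16 at 40 minutes, a level 1.63-fold and 2.18-fold lower. The 1.63-fold value is near the limit. *BUB3* was at -0.43 at 20 minutes once the median change of all genes was subtracted, which is under the limit.

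*BUB1*, which encodes the kinase that partners Bub3, could not be followed. Its Cy5 spots were 544 and 649 at 6 hours, under the floor of 656 below which a signal was set to the floor, and 458 and 443 at 20 minutes, just above the floor of 397. At 40 minutes they read 791 and 266 against a floor of 268, so the 2 spots of that array disagreed. The Cy3 spots were under the floor on all 3 arrays, at 281 to 523 against floors of 690, 574 and 455. No level and no change from 6 hours is given for *BUB1*, and the low signal says nothing of whether its product was present.

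**Figure D2:**
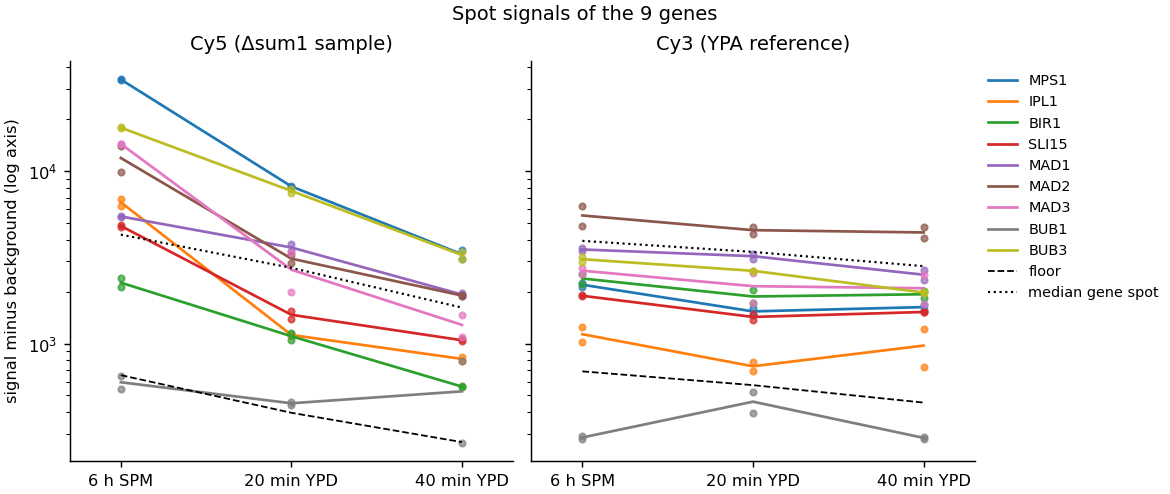
Background-subtracted spot signal (vertical log axis, scanner units) of the 9 genes in the sample channel (left) and the reference channel (right) on the 3 arrays (horizontal axis); dots are the 2 spots, lines join their means, the dashed line is the floor and the dotted line the median gene spot. *BUB1* lies at or near the floor in Cy5 and under it in Cy3, whereas the Cy5 signal of *MPS1* runs from 33968 to 3290.

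Ranked by ratio at 6 hours the order was *MPS1*, *IPL1*, *BUB3*, *MAD3*, *SLI15*, *MAD2*, *MAD1* and *BIR1*. *IPL1*, *BUB3* and *MAD3* (2.62, 2.61 and 2.52) did not differ as neighbors beyond the SD of their spots. The other neighbors did, although that SD says nothing of another culture. By the change at 40 minutes, from the least to the most negative, the order was *MAD1*, *BIR1*, *BUB3*, *SLI15*, *MAD2*, *IPL1*, *MPS1* and *MAD3*. There *BIR1* could not be separated from *BUB3*, nor *BUB3* from *SLI15*, *MAD2* from *IPL1* or *IPL1* from *MPS1*.

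At 20 minutes 6 of the 8 measured genes were at least 1.5-fold lower than at 6 hours and 0 were at least 1.5-fold higher, where 39.7% of 6061 measured genes were lower and 26.4% were higher. *BIR1* and *MAD1* were the other 2. At 40 minutes 7 of 8 were lower and 0 were higher, where the shares of all genes were 43% and 27.1% of 6066. The median change of the 8 was -1.14 at 20 minutes and -1.41 at 40 minutes, against -0.28 and -0.35 over all genes. Both changes use the same 6 hour array, and an error of that array would enter both. The step from 20 to 40 minutes does not use it: there 3 of 8 were at least 1.5-fold lower (*MPS1*, *BIR1* and *MAD3*) and 0 of the 8 were higher, where 12.4% of all genes were lower and 7.87% higher, with a median of -0.42 against -0.07. *MAD3* only just reached the limit at this step, with a change of -0.59 ± 0.23, and *BIR1* was near it at 1.53-fold. *SLI15*, *MAD1* and *MAD2* stayed within 1.3-fold at this step, as did 60.2% of all genes. *BUB1*, which is not counted among the 8, had a Cy5 spot above the floor on both of these arrays and was at 0.77 ± 1.07, past the limit on average, with spots at 1.52 and 0.01. In the centered Cy5 signal alone none of the 8 genes reached the 1.5-fold limit at this step, where *MPS1* at -0.55 was the lowest and *IPL1* at 0.30 the highest.

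**Figure D3:**
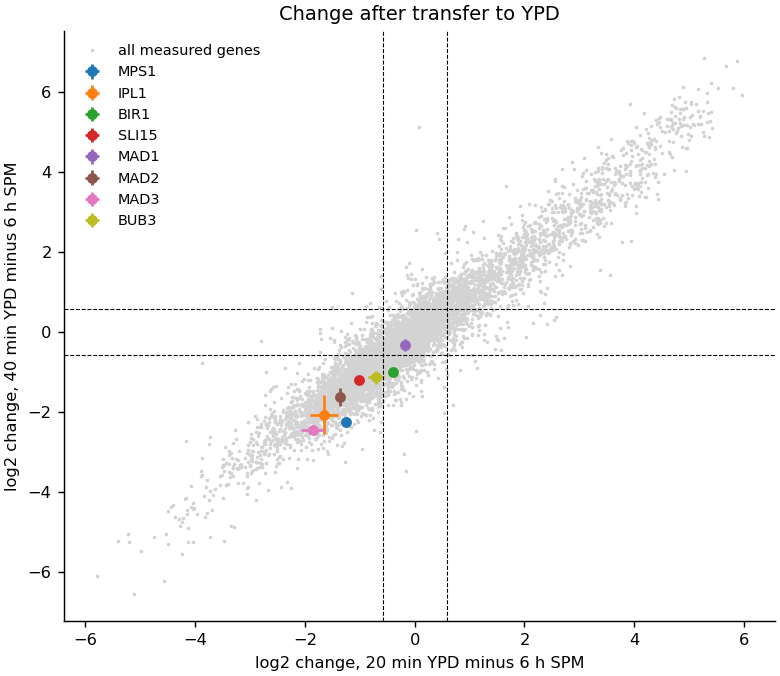
Log2 change from 6 hours in SPM after 20 minutes (horizontal axis) and 40 minutes (vertical axis) in YPD for all measured genes (grey) and the 8 genes (colored, bars are the SD of 2 spots); dashed lines mark 1.5-fold. *MAD3* is lowest at -1.86 and -2.45 and *MAD1* lies nearest to 0 at -0.18 and -0.33; both axes share the array of 6 hours.

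Against the growing reference, 7 of the 8 genes were at least 1.5-fold higher at 6 hours, where 31.6% of all measured genes were, and 0 were below, where 29.2% were. *BIR1* was the remaining gene. The count was 4 of 8 at 20 minutes (*MPS1*, *BUB3*, *IPL1* and *MAD3*), where 37% of all genes were higher, and 0 were below, where 35.2% were. At 40 minutes it was 2 of 8, where 35.3% were higher, and *BIR1* alone was at least 1.5-fold below, as were 36.5% of all genes. The study itself called a gene induced over the reference at 2-fold. Of the genes counted as higher, *MAD1* at 6 hours (1.63-fold) fell short of that. So did *IPL1* (1.95-fold) and *MAD3* (1.58-fold) at 20 minutes. The median log2 ratio of the 8 came to 1.97, 0.59 and 0.30 on the 3 arrays in order. The genes also came closer together, from a range of 4.03 on the log2 scale at 6 hours to 2.79 at 40 minutes.

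Because 1 reference RNA was hybridized to all 3 slides, the Cy3 signal of a gene shows how well its level was measured again from slide to slide. With each array centered on its median, the SD of log2 Cy3 over the 3 slides ran from 0.05 for *MAD1* to 0.32 for *IPL1*, against a median of 0.20 over 6046 genes. For *MPS1* it was 0.19 and for *MAD3* 0.12. These spreads are smaller than the changes of *MPS1*, *MAD3*, *IPL1* and *MAD2*, but they cover 1 channel and no second culture. The Cy5 signal alone, centered in the same way, gave changes at 40 minutes of -2.10 for *MAD3*, -1.97 for *MPS1*, -1.61 for *IPL1*, -1.22 for *MAD2*, -1.05 for *BUB3*, -0.80 for *SLI15*, -0.59 for *BIR1* and -0.10 for *MAD1*. The same 7 genes passed the 1.5-fold limit in that channel, *BIR1* by little.

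The kinetochore, on which these proteins act, and the targets and opponents of the checkpoint kinases were followed through 48 further genes on the array, of which 47 were measured. Of these, 36 were lower at 20 minutes and 40 at 40 minutes (76.6% and 85.1%), and 0 and 1 were higher. The shares of all measured genes were 39.7% and 43% lower and 26.4% and 27.1% higher. Their median changes were -1.02 and -1.26, near those of the 8 checkpoint and Aurora genes. In the outer kinetochore, where Mps1, the Bub proteins and the microtubules bind, 9 of 10 genes were lower at both times with medians of -1.10 and -1.31. *NDC80*, which encodes a microtubule-binding subunit, was at -1.44 ± 0.06 and -2.02 ± 0.23. *NNF1*, a gene of the Mis12 complex, was at -0.61 ± 0.25 and 0.18 ± 0.16. The DASH complex, a ring around microtubules whose subunits are substrates of Ipl1, had 7 of 10 genes on the array, 6 of them lower at each time, with medians of -0.86 and -1.28. Its extremes were *DUO1* at -2.56 and -2.12, with 2 of its spots under a floor, and *DAD2* at -0.55 and -0.52.

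The inner kinetochore, which sits on centromeric DNA, was less uniform, with 11 of 18 measured genes lower at 20 minutes and 14 at 40 minutes, and medians of -0.75 and -0.94. *CHL4* was at -2.89 and -3.42 with 2 spots under a floor, and *MCM16* at 0.51 ± 1.19 and 0.96 ± 0.71, with spots that disagreed. Among 12 genes for targets and opponents of the checkpoint kinases, such as phosphatase subunits, separase and securin, 10 were lower at 20 minutes and 11 at 40 minutes, with medians of -1.38 and -1.42. *SDS22*, which encodes a regulator of the Glc7 phosphatase that opposes Ipl1, was at -2.71 ± 0.04 and -1.01 ± 0.09. *ESP1*, the separase gene, was at 0.10 ± 0.66 and -0.02 ± 0.23 on dim spots. Nothing in these counts sets the checkpoint and Aurora genes apart from the 4 lists.

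**Figure D4:**
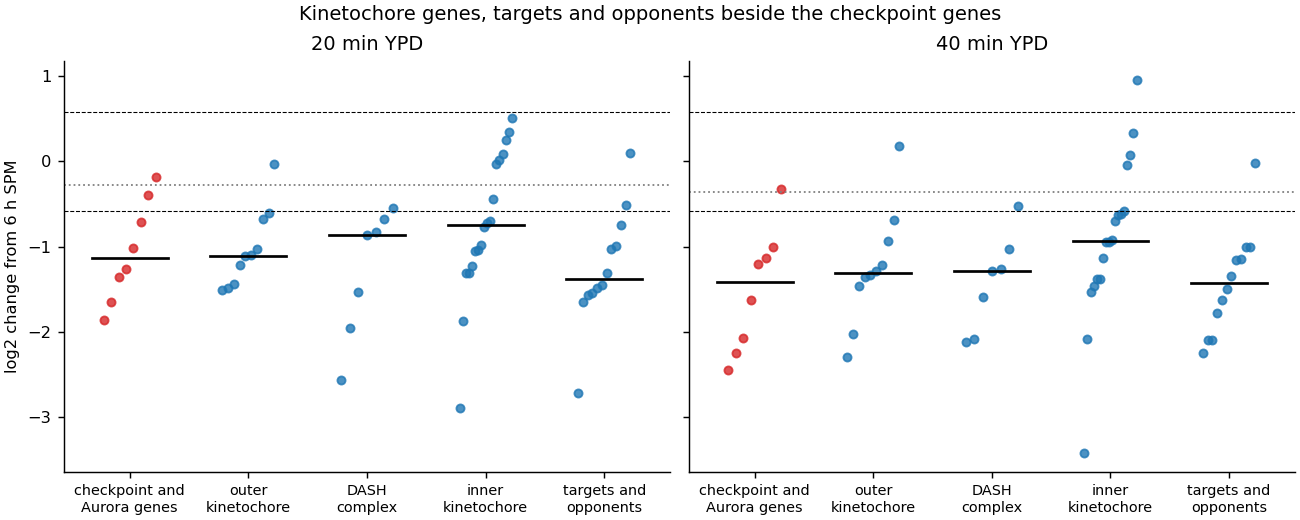
Log2 change from 6 hours in SPM (vertical axis) at 20 minutes (left) and 40 minutes (right) for the 8 checkpoint and Aurora genes (red) and for 3 lists of kinetochore genes and 1 list of targets and opponents (blue, 1 dot per gene). Bars are medians, the dotted line is the median of all genes and dashed lines mark 1.5-fold; the checkpoint and Aurora genes have medians of -1.14 and -1.41, inside the spread of each other list.

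For each gene the named gene with the most similar profile was sought among 5654 candidates, by the Euclidean distance over the 3 log2 ratios. The profile of *SLI15* was nearest to that of *MTW1*, a gene of the outer kinetochore, at a distance of 0.02 (*MTW1* at 1.44, 0.41 and 0.22). *MAD3* was nearest to *SPC97*, which encodes a subunit of the γ-tubulin complex, at 0.14, with 1 spot of *SPC97* under a floor. *MPS1* was nearest to *RRG1* at 0.11, *IPL1* to *PDE1* at 0.15, *BIR1* to *MAG2* at 0.14, *MAD1* to *SAM37* at 0.02, *MAD2* to *PCL6* at 0.11 and *BUB3* to *IMA1* at 0.06. Genes nearest to the median profile of the 8 were *SSK1*, *SPO71*, *YPF1*, *RTS2* and *DYN3*, at 0.09 to 0.21. A distance over 3 arrays is a description of these profiles only. Among the 8 genes themselves the closest pair was *IPL1* and *MAD3*, at 0.58, and the farthest was *MPS1* and *BIR1*, at 5.84. *SLI15* and *IPL1*, whose products bind each other, were 1.37 apart, and *MAD1* and *MAD2* were 1.19 apart.

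The genes next to the 8 on the chromosome do not overlap them in the annotation. Of these 16 neighbors, 10 were lower at 20 minutes and 11 at 40 minutes, 3 and 2 were higher, and the medians were -0.85 and -1.01. Over all measured genes 39.7% and 43% were lower and 26.4% and 27.1% were higher. For *SLI15* the neighbor *CNS1*, named here because its change was opposite and chosen after its values were seen, was at 1.73 and 1.56.

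Marker genes were read beside the shares of all measured genes. Above the reference by 1.5-fold were 31.6%, 37% and 35.3% of all genes at 6 hours, 20 and 40 minutes. After the transfer 39.7% and 43% of all genes were lower, and 26.4% and 27.1% were higher. All 6 sporulation markers were at least 1.5-fold above the reference on every array, with log2 ratios of 1.72 to 6.09 at 6 hours, and 0 of the 6 were lower by the 1.5-fold limit at either time in YPD. *NDT80* came nearest to it, at -0.56 at 40 minutes. Of the 6, 1 was higher at 20 minutes and 3 at 40 minutes, led by *DIT1* at 1.24 ± 0.21 and 2.78 ± 0.12, and the medians were 0.24 and 0.38. Most of the 6 had spots under a floor, with 5 for *SSP1*, 4 for *DIT1* and 3 each for *NDT80* and *SMK1*, so their ratios rest partly on the floor. Their summed Cy5 signal was 210407, 172870 and 131691, which like the sums below is not corrected for the dimming of the arrays. Of 5 markers of mitotic growth, 3 were above the reference at 6 hours, 0 at 20 minutes and 1 at 40 minutes, and their summed Cy5 signal was 30370, 13196 and 9509. *CLB2*, which encodes a mitotic cyclin, was the only marker of that list that was lower at 40 minutes, at -1.51, and *CLN2*, the highest of the list by its mean change, was at -0.02 and -0.20. Markers of haploid and mating cells, which a diploid culture should lack, were above the reference for 9 of 11 genes at 6 hours, 7 at 20 minutes and 9 at 40 minutes, with summed signals of 62911, 47124 and 33858. Several of these genes had spots under a floor, up to 5 per gene, so their ratios rest partly on the floor. The reference is a diploid culture as well, and a ratio above it does not by itself show haploid cells. In that list, by mean change, *STE5* was lowest, at -1.06 ± 0.42 and -1.93 ± 0.33 with 2 spots under a floor, and *HO* highest, at 2.49 ± 0.25 and 2.45 ± 0.06. The part of these markers' cells in the changes of the checkpoint and Aurora genes was not tested.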

How the data were processed

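The authors quantified the scanned arrays with QuantArray version 3 and deposited, per spot and channel, an intensity with its local background. A table of log2 ratios was deposited as well, for which they had subtracted the background, applied a floor, centered each array on its median, left out bad spots and averaged duplicates; the scale and direction of these are those of log2 Cy5 over Cy3. The labeling protocol names the dyes in the opposite order; the channel labels and the scanner headers were followed. No genome build is named for the arrays, so no coordinates or sequences are given.

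Here the background was subtracted and a signal below the floor was replaced by it. The floors (656, 397 and 268 in Cy5; 690, 574 and 455 in Cy3) were recovered from the deposited log2 ratios. The study's methods give the mean of the buffer spots as the floor (1650, 1304 and 1236 in Cy5, and 2232, 1297 and 1537 in Cy3). It differs from the floors that the deposited ratios hold and was used as an alternative. The mean Cy3 signals of *IPL1* on every array, and of *MPS1* and *SLI15* at 6 hours, were under it. So were the mean Cy5 signals of *IPL1* and *BIR1* at 20 and 40 minutes and of *SLI15* at 40 minutes. Log2(Cy5/Cy3) was taken, the median of the array subtracted and the 2 spots averaged. Of the compared genes 97.9%, 98.4% and 98.1% lay within 0.001 of the deposited value, after a constant per array. The floors were taken from these same values, which adds to that share. From 5.07% to 5.24% of gene spots were under a floor. A change was taken as measured where on both arrays at least 1 spot was above a floor in at least 1 channel. The limits of 1.5-fold and 1.3-fold are those of the study for a change on transfer to YPD. For induction over the reference the study took 2-fold, whereas 1.5-fold was used here. Names came from the R64 annotation, with 5663 of 6218 array genes matched; *SLI15* is listed on the array by its identifier only. Scripts were tested on simulated data. Python 3.11.15, pandas 2.3.3, R 4.3.3 and limma 3.58.1 (alternatives only) were used.

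All 9 genes are named, and of each other list the gene with the lowest and the highest mean change over both times. The 9 genes and the lists were chosen with earlier results of these data known.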

Additional observations from a re-analysis of the deposited data

How the results depend on the processing

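The counts and medians were recomputed under 14 settings. The count of lower genes was 7 at 40 minutes under all of them, where 30.9% to 48.4% of all genes were lower. With the buffer floor *IPL1* at both times and *SLI15* at 40 minutes had every spot under the floor in both channels. Their changes under that setting were thus not measured, although its counts and medians include them. At 20 minutes it was 8 with the mean of the buffer spots as the floor, as the methods state it, where 48.1% of all genes were lower. It was 5 with Cy5 alone (35.4% of all genes), at 2-fold as the limit (26.7%) and after subtraction of the median change of all genes (30.8%). Under the others it was 6, where 39.6% to 42.7% of all genes were lower. Subtraction of the median change was added after seeing the data. The median at 20 minutes was -1.57 with the buffer floor and -0.86 with the median of all genes subtracted; at 40 minutes it was -1.83 with the buffer floor, -1.14 with Cy5 alone and -1.06 with the median of all genes subtracted. The buffer floor also moved the median change of all genes to -0.53 at both times. Of 208 recomputed changes of single genes, 205 stayed below 0 and 3, all of *MAD1*, were above it. The 208 include the unmeasured changes of the buffer floor. Only 6 crossed the 1.5-fold limit. With the buffer floor these were *MAD1* (-0.75 at 20 minutes, and also at 40 minutes) and *BIR1* (-0.72 at 20 minutes, and -0.54 in place of -1.01 at 40 minutes). *BUB3* at 20 minutes crossed it with Cy5 alone (-0.58) and with the median of all genes subtracted (-0.43). The causes were not tested. *BUB1* was given no change from 6 hours under any setting. The number of arrays limits the precision, and dim spots limit *IPL1* and *BUB1* most. No paired analysis was possible because each time point has 1 array.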
